A study of Mus musculus with 136 samples.

Results

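The metal ion transporters examined here are the solute carriers whose symbol falls into the gene families Slc11, Slc30, Slc31, Slc39, Slc40 and Slc41. The symbol alone decided membership, and these families were chosen with earlier results of these data known. The rule found 32 genes among the 47643 rows of the count table. Of these, 14 belong to Slc39, 10 to Slc30, 3 to Slc41, 2 each to Slc11 and Slc31, and 1 is Slc40a1. All 32 are protein-coding genes in the GENCODE M21 annotation of the mouse genome (GRCm38).

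These carriers move zinc, iron, copper, manganese and magnesium across membranes. The ZIP proteins of the Slc39 family bring zinc, and in some cases manganese or iron, into the cytosol, whereas the ZnT proteins of the Slc30 family take zinc out of the cytosol, across the plasma membrane or into organelles. At the stage studied, before the placenta takes over, the visceral endoderm of the yolk sac absorbs nutrients from its surroundings and passes them on to the embryo.

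From each of 66 NOD concepti at 8.5 days of gestation, RNA of the embryo proper and of the visceral yolk sac was profiled separately. NOD females develop diabetes spontaneously, and all concepti, including those of normal dams, carry the NOD background; diabetic dams were mated to NOD males with normal blood glucose. The normal groups held 17 concepti (10 litters) with 5 to 6 somite pairs and 16 (7 litters) with 7 to 9. The diabetic groups held 17 (9 litters) and 16 (6 litters), and a single litter, D24M15, gave 7 of these last 16. There were 22 litters in all, 10 normal and 12 diabetic, because some dams gave concepti to both stage groups. All 7 normal litters of the later stage, and D24M15, D28M23 and D28M36, occur at both stages. Comparisons of stages therefore share dams, and counts summed per litter enter such a dam once per stage. The labels give maternal blood glucose of 105 to 164 mg/dl for normal and of 423 to 595 mg/dl for diabetic dams, with 1 diabetic reading above the scale of the meter. Concepti of a litter share a dam, so that p-values over concepti do not treat the dam as the unit, and fits by litter are reported where a call changed.

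The 66 embryo and 66 yolk sac libraries held between 1017901 and 5658850 counts (median 2302819) and their values are described as counts of unique molecular identifiers (UMIs), which tag single molecules. Levels are given as normalized counts, which are counts divided by a size factor per library estimated over all of these libraries. A library read from the 3′ end yields 1 fragment per transcript, so counts were not divided by transcript length; the order of levels between genes still depends on how well each 3′ end is captured. The labelled tissues fit their markers: 10 of 10 visceral endoderm genes were higher and 6 of 6 genes of the embryo proper lower in yolk sacs at both stages. Among yolk sacs alone, 1 of these 6 passed the filter on low counts with 5 to 6 somite pairs and 0 with 7 to 9. Of the 10, 8 passed among embryos alone in each stage group. For genes that entered through 1 tissue, the filter set the direction. Summed levels of the 6, taken without the filter, ranged from 479.6 to 1077 normalized counts in embryos and from 3.61 to 56.8 in yolk sacs. In embryo libraries the summed level of the 10 visceral endoderm genes ranged from 96.3 to 3362 normalized counts, against 10370 to 53510 in yolk sacs. Macrophage markers, at sums of 12.8 normalized counts or less, were near 0 in both tissues. Sums of 5 trophoblast and decidual markers reached 12.3 in embryos and 727 in yolk sacs. In 2 concepti the sex label of the embryo differs from that of its yolk sac, and the counts of Xist and of Y-linked genes matched the label in each of these libraries; results were also computed without both concepti.

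In both tissues most of the metal ion transporters were detected, at levels that differed widely between families. The 14 ZIP genes together reached 811.7 ± 54.8 normalized counts (SD, n = 34) in embryos and 1515 ± 131 (n = 34) in yolk sacs at 5 to 6 somite pairs, and the 10 ZnT genes 516.7 ± 41.8 and 978.6 ± 121. For the 2 copper carriers of Slc31 the sums were 180.3 ± 31.6 and 339.1 ± 59.7. Slc40a1, ferroportin, the exporter of iron from cells, stood at 18.03 ± 4.75 in embryos and 144.3 ± 25.2 in yolk sacs. By contrast, the 3 Slc41 genes, carriers of magnesium, had nearly equal sums of 25.7 ± 6.08 in embryos and 26.1 ± 6.49 in yolk sacs.

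The highest-ranking members differed between the tissues. In embryos at 5 to 6 somite pairs, Slc39a6 (mean 196.5), Slc39a10 (192.6), Slc31a1 (164.6), Slc30a9 (153.0) and Slc39a9 (127.0 normalized counts) made up 50.1% of the summed level of the 32 genes. In yolk sacs at the same stage, Slc39a8 ranked first with 411.4 normalized counts, followed by Slc30a1 (302.4), Slc31a1 (301.1), Slc39a4 (227.7) and Slc30a4 (222.8), together 46.2% of the sum. At 7 to 9 somite pairs the first 4 places in embryos were held by the same 4 genes, and Slc39a8 again led in yolk sacs with 536.4 normalized counts or 15.96% of the sum. Slc31a1, the high-affinity copper importer of the plasma membrane, was the only gene among the first 3 in both tissues at both stages. Neighbours in these orders were often not separated: in embryos at the earlier stage, Slc39a6 (132.5 to 267.3) and Slc39a10 (111.9 to 248.7) spanned almost the same range.

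**Figure D1:**
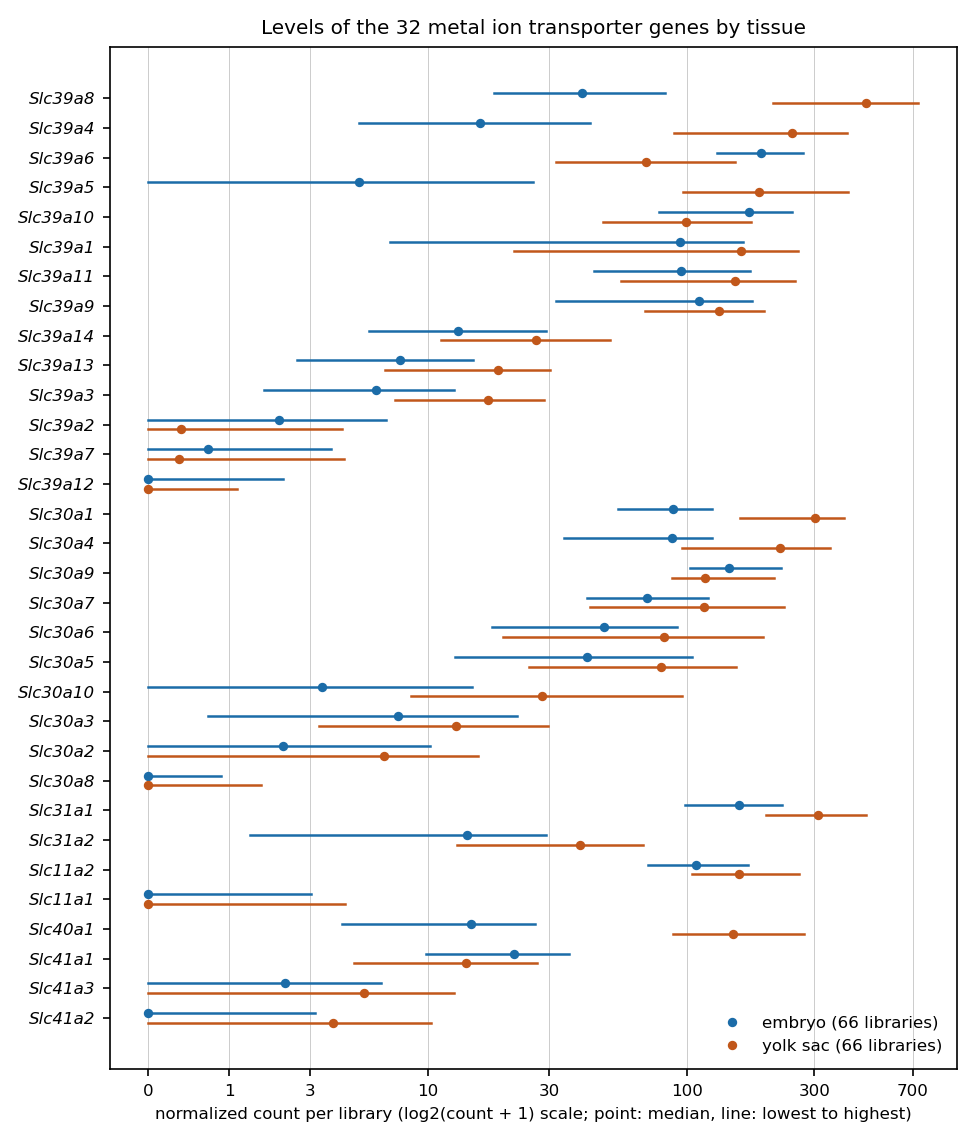
Normalized counts of the 32 metal ion transporter genes, by family and then by level, on an axis of log2(count + 1); points are medians and lines run from the lowest to the highest of 66 embryo (blue) or 66 yolk sac (orange) libraries. The ranges of the tissues lie apart for Slc39a8, Slc39a4, Slc39a5, Slc30a1 and Slc40a1, and embryos lie higher for Slc39a6.

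A set of 8 members was too low for the tests in every comparison. Slc30a8, the zinc carrier of insulin granules, had 4 counts over all embryo and 2 over all yolk sac libraries, Slc39a12 had 5 in each tissue, and Slc11a1, the carrier of macrophage phagosomes, had 18 and 47. Slc39a7, a zinc channel of the endoplasmic reticulum, was counted 111 times in both tissues together; the annotation places the gene Gm20427 (20 counts) across it on the same strand, and reads that 2 genes share may be left uncounted, so that this low level is uncertain. The same holds for Slc39a2 with 211 counts, which overlaps Mettl17 (3040 counts). In embryos and yolk sacs, Slc41a2 reached 50 and 290, Slc41a3 177 and 357, and Slc30a2 202 and 454 counts. For Slc41a2, 64 of 66 concepti had the higher level in the yolk sac, with medians of 4.13 in yolk sacs and 0 normalized counts in embryos at 5 to 6 somite pairs.

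At 5 to 6 somite pairs, 24 members passed the filter on low counts, and all 24 differed between yolk sac and embryo at an adjusted p under 0.05 (edgeR quasi-likelihood test, Benjamini-Hochberg over all genes): 20 were higher and 4 lower in the yolk sac. Slc39a5, Slc30a10 and Slc39a3 did not pass the filter among embryos alone and entered through the yolk sacs, where they are high, so that their place among the 20 was set by the filter. Of all 11677 genes tested, 79.2% were called, 39.4% higher and 39.8% lower. At 7 to 9 somite pairs the counts were again 20 and 4, where 81.3% of 11577 genes were called, 38.7% higher and 42.6% lower. Among embryos of that stage alone 19 members passed the filter. The rest of the 24 entered through the yolk sacs, so that their place among the 20 was again set by the filter. These bulk libraries cannot tell fewer cells of a type from less RNA per cell.

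The largest differences were those of Slc39a5, Slc39a4 and Slc39a8, ZIP carriers known from polarized absorptive epithelia. Slc39a5 (chr10:128395931-128401229, minus strand), a basolateral zinc carrier of gut and pancreas, had 1.01, 5.27 and 14.3 normalized counts in the lowest, median and highest of 34 embryos at 5 to 6 somite pairs, and 96.9, 153.0 and 215.9 in the yolk sacs. No yolk sac was as low as the highest embryo. The yolk sac was 25.9-fold higher (log2 fold change 4.69, SE 0.13, adjusted p = 1.04e-45, edgeR), and 35.9-fold higher at 7 to 9 somite pairs. Slc39a5 passed the low-count filter through the yolk sacs alone, so that its p-value is no independent support for the difference.

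Slc39a4 (chr15:76612383-76617384, minus strand) encodes the zinc importer of the gut surface, whose loss in humans causes the zinc deficiency acrodermatitis enteropathica. It ranged from 7.67 to 35.9 in embryos with a median of 18.9, and from 131.2 to 327.2 in yolk sacs with a median of 215.0 normalized counts. The groups did not overlap, and the yolk sac was higher by 11.7-fold (log2 fold change 3.55, SE 0.097) with 5 to 6 and 17.8-fold with 7 to 9 somite pairs. Slc39a8 (chr3:135825279-135888572, plus strand), a carrier of zinc and manganese, was the most abundant member in yolk sacs, with 210.0, 426.6 and 616.6 as lowest, median and highest value, against 18.3, 46.4 and 82.7 in embryos. Again the groups were apart, by 9.30-fold (log2 fold change 3.22, SE 0.11) and 13.7-fold.

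Slc40a1 (chr1:45908068-45926523, minus strand) ranged from 7.84 to 26.5 normalized counts in embryos (median 18.2) and from 88.8 to 181.6 in yolk sacs (median 145.4). The yolk sac was 8.31-fold higher at 5 to 6 (log2 fold change 3.06, SE 0.082, adjusted p = 3.03e-46, edgeR) and 12.8-fold higher at 7 to 9 somite pairs. The messenger RNA of ferroportin is known to carry an iron-responsive element, a hairpin bound by iron regulatory proteins, and it is shown because the element is a defining feature of this transcript. A search of the GENCODE transcripts for a bulged C, 5 paired bases and the loop CAGTGN found it in 1.34% of 21901 genes with a protein-coding transcript, and Slc40a1 was the only one of the 32 members with a match. Elements that depart from this strict pattern would be missed, so the search does not show that the other members lack one. The match in Slc40a1 is given here. It lies at chr1:45925464-45925493 (GRCm38, minus strand) before the start codon. Capitals mark the bulged C and the 6 bases of the loop:
Slc40a1: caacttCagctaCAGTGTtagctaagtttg
The same pattern was found in the ferritin genes Fth1 and Ftl1 and, 4 times, in the transferrin receptor gene Tfrc, which were measured with the related genes below.

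Slc30a10 and Slc30a1 followed among the genes higher in the yolk sac. Slc30a10 (chr1:185454848-185468762, plus strand), a ZnT family member that exports manganese, had a median of 3.62 (0 to 12.1) in embryos and of 28.5 (11.2 to 71.6 normalized counts) in yolk sacs. The ranges overlapped slightly, and the yolk sac was 8.28-fold higher (log2 fold change 3.05, SE 0.17) with 5 to 6 and 7.12-fold with 7 to 9 somite pairs. Slc30a1 (chr1:191906767-191913247, plus strand), the zinc exporter of the plasma membrane, ranged from 55.6 to 120.1 with a median of 91.7 in embryos and from 210.8 to 388.6 with a median of 304.4 in yolk sacs. With no overlap between the tissues, it was 3.54-fold higher (log2 fold change 1.82, SE 0.059) in the yolk sac.

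Slc30a1 is a textbook target of MTF1, the zinc-sensing transcription factor that binds metal response elements. Promoters of 3 ZnT genes that were higher in the yolk sac are shown, because these windows held 2 or more matches to the core of that element. Windows of 250 bases before to 50 bases after the start site (RefSeq, GRCm38.p6) were present for 26 of the 32 members and were searched on both strands for TGCACNC and TGCGCNC. At least 1 match was found in 15 of the 26 (57.7%), against 28.2% of 27025 genes with a window, and 2 or more in 4 members (15.4%, against 8.1%): Slc30a1, Slc30a2, Slc30a4 and Slc30a10. Matches are in capitals, and where a stretch reads as a match on both strands it was counted on each. The windows are chr1:191906531-191906830 (plus strand) for Slc30a1, chr1:185454598-185454897 (plus strand) for Slc30a10 and chr2:122702614-122702913 (minus strand) for Slc30a4, each written in the direction of transcription:
Slc30a1: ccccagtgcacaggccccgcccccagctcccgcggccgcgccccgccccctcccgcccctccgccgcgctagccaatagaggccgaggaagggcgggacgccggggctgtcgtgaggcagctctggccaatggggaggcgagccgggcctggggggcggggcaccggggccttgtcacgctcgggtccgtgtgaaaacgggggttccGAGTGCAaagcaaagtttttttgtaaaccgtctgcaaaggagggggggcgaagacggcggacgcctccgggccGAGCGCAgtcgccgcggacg
Slc30a10: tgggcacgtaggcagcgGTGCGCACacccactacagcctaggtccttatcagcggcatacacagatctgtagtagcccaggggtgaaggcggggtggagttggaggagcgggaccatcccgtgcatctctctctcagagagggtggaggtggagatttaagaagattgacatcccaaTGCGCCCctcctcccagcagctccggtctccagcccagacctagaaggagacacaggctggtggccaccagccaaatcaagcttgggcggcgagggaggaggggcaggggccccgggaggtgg
Slc30a4: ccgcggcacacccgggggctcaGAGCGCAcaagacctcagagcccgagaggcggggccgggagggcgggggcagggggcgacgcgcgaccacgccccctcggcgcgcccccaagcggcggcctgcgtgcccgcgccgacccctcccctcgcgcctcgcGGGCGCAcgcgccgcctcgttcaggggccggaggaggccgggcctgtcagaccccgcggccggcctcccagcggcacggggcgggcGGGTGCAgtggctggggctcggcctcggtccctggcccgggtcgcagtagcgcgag
The matches of Slc30a1 begin 43 bases before and 30 bases after the start site, those of Slc30a10 at 233 and 73 bases and those of Slc30a4 at 228, 92 and 6 bases before it. Slc30a4, a zinc carrier of endosomes, was 2.62-fold higher in the yolk sac (log2 fold change 1.39, SE 0.067) at the earlier stage. A match is a description of the letters in these windows and was not tested for use.

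The other 13 members that were higher in the yolk sac differed by 1.203-fold to 2.52-fold at the earlier stage. They include the copper carriers Slc31a2 (2.52-fold) and Slc31a1 (1.91-fold), the iron and manganese importer Slc11a2 (1.58-fold), Slc39a14 (1.94-fold), a carrier of zinc, manganese and iron not bound to transferrin, and Slc30a5, Slc30a6 and Slc30a7, ZnT proteins of the early secretory pathway (1.80-fold, 1.67-fold and 1.75-fold). The smallest difference was that of Slc39a9, at 1.203-fold (log2 fold change 0.27, SE 0.074), and it was not called when libraries were scaled by their totals alone (0.075, adjusted p = 0.382). Genes on the other strand overlap 14 members, among them Slc39a9 (17301 counts, Erh 17724), Slc39a6 (19089 counts, Elp2 72929) and Slc39a13 (1879 counts, Psmc3 136520). No source used here states whether counting used the strand, so the tissue and stage differences of these members carry that uncertainty.

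The 4 members lower in the yolk sac were Slc39a6, Slc39a10, Slc41a1 and Slc30a9. Slc39a6 and Slc39a10 encode ZIP carriers of the plasma membrane that are known to form a complex with each other. Slc39a6 ranged from 132.5 to 267.3 normalized counts in embryos (median 190.1) and from 31.9 to 151.2 in yolk sacs (median 75.5). The ranges overlapped at the earlier stage and not at the later one, with the embryo 2.40-fold (log2 fold change of the yolk sac -1.26, SE 0.076) and 2.98-fold higher. Slc39a10 (chr1:46807544-46892852, minus strand) had medians of 200.5 (111.9 to 248.7) and 117.2 (48.3 to 173.7 normalized counts), and the embryo was 1.64-fold higher with overlapping ranges. Slc41a1, a magnesium exporter of the plasma membrane, and Slc30a9, a zinc carrier of mitochondria, were 1.33-fold and 1.24-fold higher in embryos; the mean levels of Slc30a9 were 153.0 and 118.0 normalized counts.

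**Figure D2:**
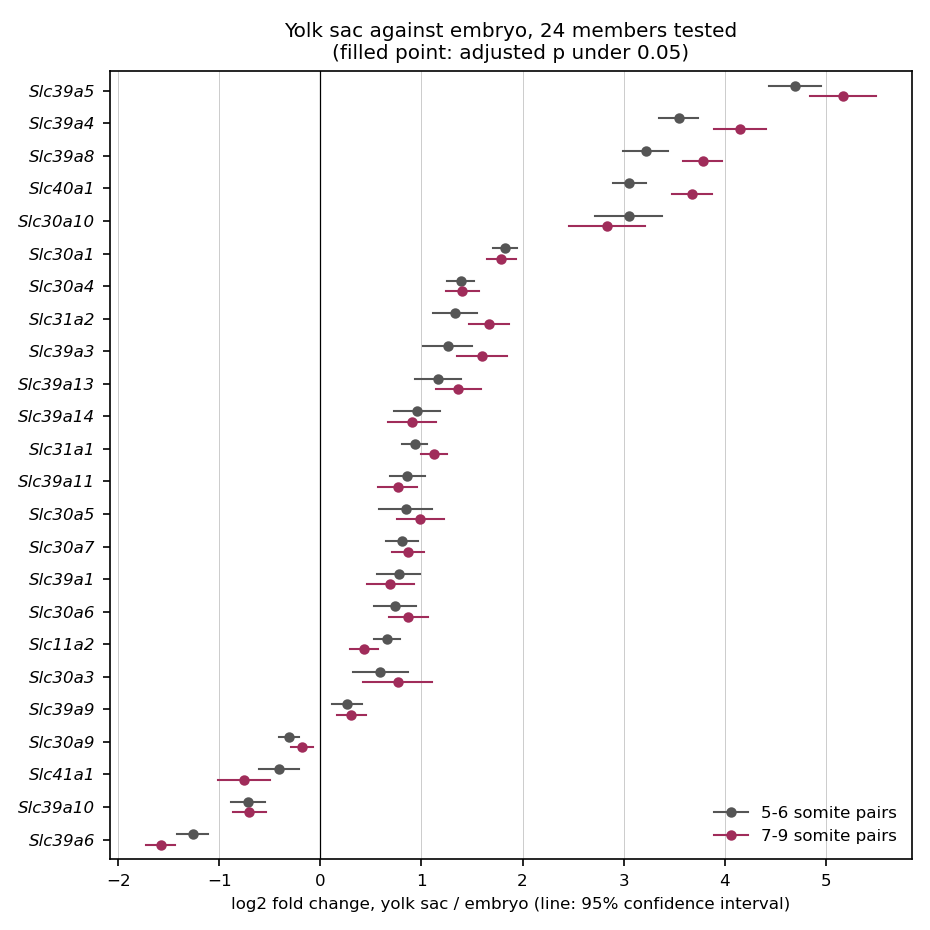
Log2 fold change of yolk sac over embryo for the 24 members tested, at 5 to 6 (grey) and 7 to 9 somite pairs (purple), with 95% confidence intervals; filled points have an adjusted p under 0.05. Values run from -1.26 for Slc39a6 to 4.69 for Slc39a5 at the earlier stage, and 20 of 24 lie above 0 at both stages.

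Within single concepti the direction held in all pairs for some members and in fewer for others. Of 66 pairs of embryo and yolk sac, the yolk sac was higher in 66 for Slc39a5, Slc39a4, Slc39a8, Slc40a1, Slc30a10, Slc30a1 and Slc30a4, and the embryo was higher in 66 for Slc39a6, in 62 for Slc39a10, in 59 for Slc30a9 and in 52 for Slc41a1. For the other 13 members called higher in the yolk sac this held in 50 to 65 pairs, with the fewest for Slc39a9 (50), Slc30a3 (54) and Slc11a2 (57). Tissue ranges did not overlap for 5 members with higher levels in the yolk sac at both stages, namely Slc30a1, Slc39a4, Slc39a5, Slc39a8 and Slc40a1, against 6.86% of all genes tested with 5 to 6 and 7.62% with 7 to 9 somite pairs. In the other direction this held for Slc39a6 at the later stage, against 6.69% of all genes, and for 0 of 24 members at the earlier stage, where the share of all genes was 5.99%. Of the 5 members higher in the yolk sac, Slc39a5 passed the low-count filter through the yolk sacs alone, which set its place among them.

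Embryo libraries contained some RNA of genes typical for the visceral endoderm. At 5 to 6 somite pairs the 10 marker genes of that layer reached between 1.58% (Apoa4) and 4.87% (Ttr) of their yolk sac level in embryos, and between 1.30% and 3.32% at the later stage. Slc39a5 lay within this range at both stages, at 3.80% and 2.85%. Slc39a4 (8.81% and 5.77%), Slc39a8 (11.2% and 7.34%), Slc40a1 (12.5% and 7.88%) and Slc30a10 (12.0% and 13.4%) lay above it. The embryo of conceptus D24M15G was sequenced again as a batch control, with 2535105 counts in the original and 2626999 in the duplicate. The original had 3985 counts of the 10 endoderm markers and the duplicate 1283; Slc39a5 had 31 and 5 counts, Slc39a4 51 and 21, Slc40a1 25 and 10, whereas Slc39a8 had 64 and 60 and Slc39a10 210 and 227. The embryo of conceptus N28M06C was also sequenced again, with 5658850 and 5757211 counts. There the 10 markers had 1633 and 1629 counts, Slc39a5 24 and 23, and Slc39a4 65 and 50. Slc40a1 had 68 and 39, Slc39a8 113 and 115, and Slc39a10 398 and 417. The part of visceral endoderm RNA in the embryo values of these members was not tested.

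Related genes of metal handling, a list of 68 genes for metal sensing, binding and transport outside these families, also differed between the tissues. Of 51 tested at the earlier stage, 33 were higher and 13 lower in the yolk sac, with a median log2 fold change of 0.51. Of all 11677 genes tested, 39.4% were higher and 39.8% lower. Among embryos alone 46 of the 68 passed the filter on low counts, and among yolk sacs alone 49. The direction of genes that entered through 1 tissue was set by the filter. The largest increases in the yolk sac were those of Trf, the serum carrier of iron (5.26), Trpm6, a magnesium channel (4.14), Sod3, the extracellular copper and zinc superoxide dismutase (4.13), and Mt1, a metallothionein that binds zinc (3.28). Among the lowered genes were Arg1, the manganese enzyme arginase (-4.34), and the copper-containing ferroxidase Heph (-1.70). Fth1 and Ftl1, ferritin subunits for iron storage, were higher by 2.42 and 1.23 and Tfrc was lower by a log2 fold change of -0.31. Mtf1 was higher by 0.24 on the log2 scale. These 4 are named because they carry the sequence elements shown above or encode the factor that binds one.

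Between 5 to 6 and 7 to 9 somite pairs, some members were called in each tissue. Over both directions together the shares, 28.6% in embryos and 41.7% in yolk sacs, were close to those of all genes. By direction they were not close in embryos. In embryos 6 of 21 tested members were lower at the later stage and 0 were higher (edgeR); among all 11304 genes tested, 30.8% were called, 15.8% lower and 15% higher. In yolk sacs 5 of 24 were higher and 5 lower, against 21.7% and 18.3% of 10857 genes, or 40% in either direction. The median log2 fold change over the members was -0.094 in embryos and 0.048 in yolk sacs, against -0.0058 and 0.0087 over all genes. With libraries scaled by totals alone, the calls in yolk sacs were 6 higher and 2 lower.

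In embryos, Slc40a1 fell by 0.52 on the log2 scale (SE 0.11, adjusted p = 0.000192, edgeR), from a median of 18.2 (7.84 to 26.5) to 12.3 (4.25 to 21.5 normalized counts). The ranges overlapped widely. Slc39a4 fell by 0.37 (SE 0.14, adjusted p = 0.0398), with medians of 18.9 and 13.2, a call that was lost with no filter on low counts (adjusted p = 0.0693) and with counts summed per litter (adjusted p = 0.122). Slc39a9, a zinc carrier of the Golgi and cell surface, fell by 0.35 (SE 0.081), from a median of 129.7 to 102.0. Slc39a10 fell by 0.32 (SE 0.071), and Slc30a7 by 0.28 (SE 0.078). A further call of 0.14 downward was that of Slc30a9 (SE 0.051), which stands beyond the 5 genes of the naming rule and is named after its value was seen; it was lost under 4 of 14 alternatives. With counts summed per litter, Slc40a1 and Slc39a9 were the 2 members still called in embryos.

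In yolk sacs the 5 genes that rose all encode ZIP carriers, as do Slc39a6, Slc39a9 and Slc39a10 among the 5 that fell. Slc39a5 rose by 0.61 (SE 0.073, adjusted p = 5.54e-10, edgeR), from a median of 153.0 (96.9 to 215.9) to 232.5 (135.7 to 401.4 normalized counts). Slc39a3, a zinc importer of the plasma membrane, rose by 0.54 (SE 0.11), Slc39a8 by 0.40 (SE 0.085), Slc39a13, a zinc carrier of the Golgi, by 0.31 (SE 0.098) and Slc39a4 by 0.28 (SE 0.082). For all 5 the ranges of the stages overlapped. The 5 that fell were Slc41a1 (log2 fold change -0.33, SE 0.12), Slc39a6 (-0.28, SE 0.083), Slc39a9 (-0.27, SE 0.067), Slc39a10 (-0.26, SE 0.097) and Slc11a2 (-0.19, SE 0.068). Slc39a9 and Slc39a10 were thus lower at the later stage in both tissues. Among the libraries whose titles carry the number 28, Slc11a2 had a log2 fold change of -0.11 and was not called (adjusted p = 0.315). The calls of Slc39a13, Slc41a1, Slc11a2 and Slc39a10 were each lost under 2 or 3 of 14 alternatives. In yolk sacs 8 of 10 visceral endoderm markers were higher and 1 lower at the later stage, and 4 of 5 primitive erythroid markers were higher; their part in these differences was not tested.

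**Figure D3:**
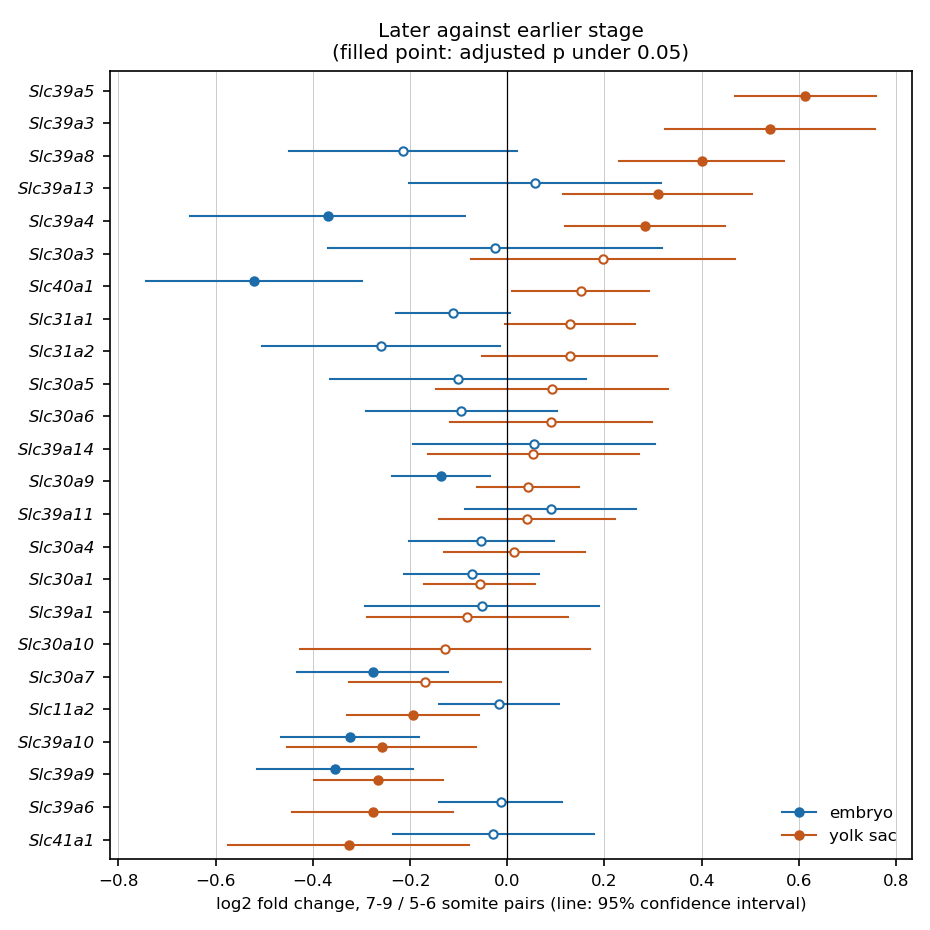
Log2 fold change of 7 to 9 over 5 to 6 somite pairs for members tested in embryos (blue, 21 genes) and yolk sacs (orange, 24 genes), with 95% confidence intervals; filled points have an adjusted p under 0.05. Slc39a4 lies below 0 in embryos (-0.37) and above 0 in yolk sacs (0.28), and filled points in embryos are all below 0.

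The change with stage differed between the tissues for 3 of 24 members (edgeR, interaction of tissue and stage; 3.23% of 12183 genes were called, 1.74% with a positive and 1.49% with a negative term). The difference of the log2 fold changes, yolk sac minus embryo, was 0.68 for Slc40a1 (SE 0.13, adjusted p = 0.000337), 0.66 for Slc39a4 (SE 0.16, adjusted p = 0.00768) and 0.62 for Slc39a8 (SE 0.14, adjusted p = 0.00546). In each case the yolk sac stood further above the embryo at the later stage. For Slc40a1 this came with a yolk sac median of 145.4 with 5 to 6 and 154.5 with 7 to 9 somite pairs, a change within yolk sacs that was not called in the main test (log2 fold change 0.15, adjusted p = 0.0816) and was called with counts summed per litter (0.21, adjusted p = 0.0485) and with scaling by totals (0.18, adjusted p = 0.0392). Summing counts per litter left Slc40a1 as the single call of the 3, with adjusted p = 0.0646 for Slc39a4 and 0.0741 for Slc39a8. Of 9 visceral endoderm markers tested in embryos, 0 were higher and 1 lower at the later stage.

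**Figure D4:**
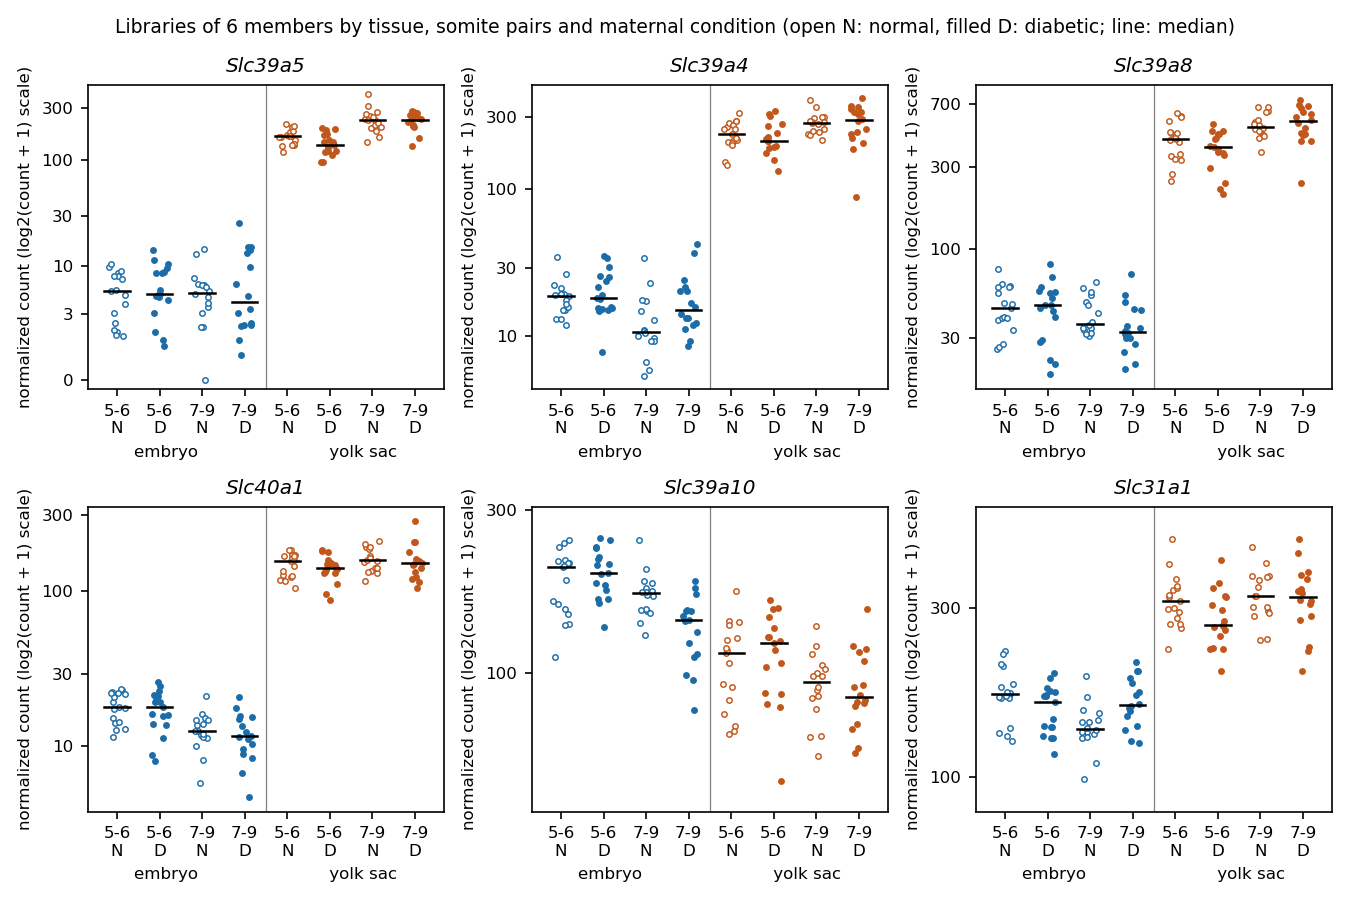
Normalized counts of 6 members in each library, on axes of log2(count + 1), by tissue (embryo blue, yolk sac orange), somite pairs and condition (open N, normal; filled D, diabetic); lines are medians, and points are spread sideways for sight only. Slc39a5, Slc39a4, Slc39a8 and Slc40a1 show no overlap between tissues, and Slc39a10 in embryos at 7 to 9 somite pairs has medians of 171.3 (normal) and 142.7 (diabetic).

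Maternal diabetes was accompanied by few differences in these genes. In embryos at 5 to 6 somite pairs, 0 of 21 tested members were called (edgeR), with 1.46% of 11004 genes called in all, 0.591% higher and 0.872% lower. DESeq2 and limma with litter as a block also called 0, and 3 members had an unadjusted p under 0.05. The lowest p was that of Slc39a11, a zinc carrier. It had medians of 100.3 (57.5 to 158.6) in 17 embryos of normal and 83.6 (44.8 to 113.2 normalized counts) in 17 of diabetic dams, with overlapping ranges and a log2 fold change of -0.33 (95% interval -0.56 to -0.11, adjusted p = 0.0973). The intervals of all 21 members lay within -1 and 1 on the log2 scale, and the median over the members was -0.016. Among the related genes, Trpm7, a magnesium channel and kinase, was higher by 0.54 (adjusted p = 0.0478) and the other 45 tested were not called.

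In embryos at 7 to 9 somite pairs, 1 of 19 tested members was called, Slc39a10, where 9.09% of 10628 genes were called, 5.2% higher and 3.89% lower. Slc39a10 ranged from 129.5 to 245.2 with a median of 171.3 in 16 embryos of normal dams and from 78.3 to 185.6 with a median of 142.7 normalized counts in 16 of diabetic dams. The diabetic group reached lower and the normal group higher, and the ranges overlapped between 129.5 and 185.6. The log2 fold change was -0.32 (SE 0.10, 95% interval -0.53 to -0.11, adjusted p = 0.0441). Litter means lay between 146 and 214.5 in 7 normal and between 86.8 and 185.6 in 6 diabetic litters, and the difference was not called with litter as a random block (adjusted p = 0.0781) or with counts summed per litter (adjusted p = 0.241). It was also not called without the concepti whose sex labels differ (adjusted p = 0.0631), or with the duplicate library in place of its original (adjusted p = 0.0513).

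Slc31a1 went the other way in these embryos without passing the test. It had medians of 136.7 (98.3 to 192.1) under normal and 159.4 (124.4 to 211.1 normalized counts) under diabetic conditions, with a log2 fold change of 0.23 (95% interval 0.065 to 0.40, adjusted p = 0.0678). A further 5 of the 7 members with an unadjusted p under 0.05, Slc30a4, Slc30a5, Slc30a9, Slc31a2 and Slc39a14, had log2 fold changes between -0.41 and -0.15 and adjusted p-values from 0.112 to 0.162. These 5 are named after their values were seen. The median over the 19 members was -0.13, against -0.0099 over all genes. Summed visceral endoderm markers had medians of 449.3 in normal and 537.2 in diabetic embryos at this stage, and 0 of 8 tested were called. Of 45 related genes tested, 3 were higher and 2 lower, near the shares of all 10628 genes (5.2% higher and 3.89% lower). Higher were Atox1 (0.45), the copper chaperone, Slc48a1 (0.43), a carrier of heme, and Sod1 (0.32), the copper and zinc superoxide dismutase. Lower were Trpm7 (-0.37) and Atp2c1 (-0.33), a calcium and manganese pump of the Golgi.

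In yolk sacs no member passed the edgeR test between conditions at either stage. Of 24 tested at 5 to 6 somite pairs, 0 were called, as were 0% of 10250 genes, and 4 had an unadjusted p under 0.05. Slc39a6 had the lowest p, with medians of 65.0 (31.9 to 107.2) and 81.6 (64.7 to 151.2 normalized counts) and a log2 fold change of 0.36 (95% interval 0.12 to 0.61, adjusted p = 0.522). At 7 to 9 somite pairs, 0 of 24 were called, against 0.0194% of 10317 genes, and 2 had an unadjusted p under 0.05. Slc39a9 had the lowest p there, with medians of 125.7 (103.0 to 180.3) and 108.5 (69.5 to 144.7) and a log2 fold change of -0.23 (95% interval -0.41 to -0.056, adjusted p = 0.364). DESeq2 and limma with litter as a block called 0 at both stages. All 24 intervals lay within -1 and 1 on the log2 scale at each stage. Median log2 fold changes over the members were -0.029 and -0.016. None of the related genes was called, of 49 and 50 tested (edgeR).

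**Figure D5:**
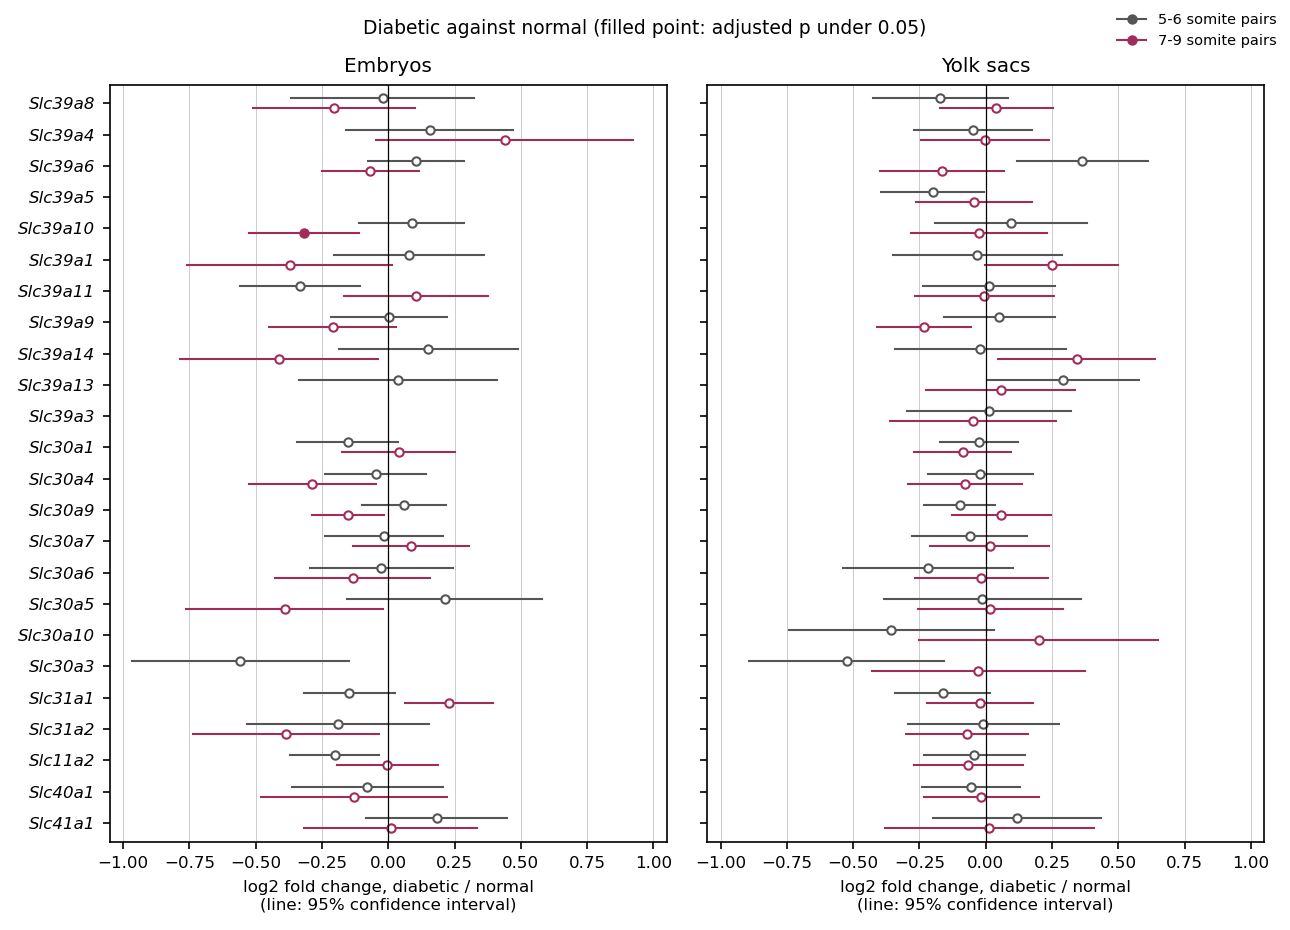
Log2 fold change of diabetic over normal for members by family, in embryos (left) and yolk sacs (right), at 5 to 6 (grey) and 7 to 9 somite pairs (purple), with 95% confidence intervals; a missing line marks a gene that was not tested. The filled point, the only one with an adjusted p under 0.05, is Slc39a10 in embryos at 7 to 9 somite pairs (-0.32).

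Whether the difference between conditions depended on stage or tissue was tested as an interaction. In embryos the stage changed the difference for 1 of 21 members, Slc31a1, where 8.7% of 11304 genes were called, and 4.35% had a called positive term. The log2 fold change of diabetic over normal was 0.39 larger at the later stage (SE 0.12, adjusted p = 0.0302, edgeR). At the earlier stage its medians were 171.9 (126.3 to 226.7) under normal and 163.1 (115.7 to 195.9 normalized counts) under diabetic conditions, the order opposite to that at 7 to 9 somite pairs. With counts summed per litter the interaction was 0.36 and not called (adjusted p = 0.260). Slc39a10 had an interaction of -0.39 (adjusted p = 0.0660), which was called with litter as a random block (-0.45, adjusted p = 0.0358) and not with counts summed per litter, where 0 members were called.

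No member passed the test for a difference between conditions that depended on tissue. At 5 to 6 somite pairs 0 of 24 were called, as were 0% of 11677 genes, and 1, Slc39a11, had an unadjusted p under 0.05 (interaction 0.36, adjusted p = 0.644). At 7 to 9 somite pairs 0 of 24 were called, against 0.389% of 11577 genes (0.19% with a positive and 0.199% with a negative term), and 2 had an unadjusted p under 0.05. The lowest p was that of Slc39a14, with an interaction of 0.76 (95% interval 0.29 to 1.24, adjusted p = 0.0843). Its medians under normal and diabetic conditions were 15.7 and 11.9 in embryos and 23.7 and 29.7 normalized counts in yolk sacs. In yolk sacs, 0 of 24 members had a called interaction of stage and condition, as did 0% of 10857 genes, and 2 had an unadjusted p under 0.05, with the lowest p for Slc39a6 (-0.53, adjusted p = 0.598). DESeq2 and limma with litter as a block called 0 in each of these 3 tests.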

How the data were processed

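RNA of 66 embryos and 66 visceral yolk sacs had been sequenced by the authors with QuantSeq 3′ FWD libraries, and the submitters' processing notes name STAR, HTSeq and the build mm10; versions, annotation, strand setting and the handling of molecular identifiers are not given in the sources used here. The deposited values are raw UMI counts per gene for 136 libraries. The 4 duplicate libraries were left out of the main tests.

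Counts were tested with edgeR 4.0.16 under R 4.3.3 (glmQLFit, glmQLFTest, TMM, filterByExpr with a minimum count of 10), once per comparison over all genes, with Benjamini-Hochberg adjustment over all genes tested and calls at an adjusted p under 0.05. Standard errors were derived from the log2 fold change and the F statistic. Normalized counts are counts divided by DESeq2 1.42.0 size factors over the libraries without duplicates. Intervals are 95% confidence intervals of the log2 fold change, with libraries taken as independent and the litter not entered. Each of 13 comparisons was tested on simulated data first.

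The members and the lists were chosen with earlier results of these data known. Members were named when called in a comparison of conditions or an interaction; for tissues, in full up to 6 raised and 6 lowered; for stages, up to 5 each way per tissue; elsewhere, the member with the lowest p. Lists comprised 68 related genes of metal handling and markers of visceral endoderm, primitive erythroid cells, adult blood, endothelium, macrophages, trophoblast with decidua, and embryo proper. Embryo and yolk sac of a conceptus share a conceptus name in their titles, which pairs them; their deviations from the group means had a median correlation of 0.0712 (31 of 66 over 0.1). Gene positions came from GENCODE M21, and promoters from RefSeq (GRCm38.p6). Alternatives were DESeq2's Wald test, RLE or total-count scaling, other low-count filters, litter as a block or as sums (limma 3.58.1 for the block), covariates, a single fit over 8 groups, added or exchanged duplicates, subsets, and leaving out each litter. Protein sequences were not used here.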

Additional observations from a re-analysis of the deposited data

Results flagged for a closer look

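The effect of diabetes in embryos differed between the stages for Slc31a1, by a test of the difference itself: the log2 fold change of diabetic over normal was 0.39 larger at 7 to 9 than at 5 to 6 somite pairs (adjusted p = 0.0302, edgeR). It was not called with counts summed per litter (adjusted p = 0.260). The change with stage differed between yolk sac and embryo for Slc40a1, Slc39a4 and Slc39a8, by interaction terms of 0.68, 0.66 and 0.62 on the log2 scale. With counts summed per litter Slc40a1 was still called, and Slc39a4 (adjusted p = 0.0646) and Slc39a8 (adjusted p = 0.0741) were not. No cause was tested for any of the 4. Groups of 16 or 17 libraries were too large for the check for single extreme libraries. The yolk sac library D28M36Cy8 held the lowest values at 7 to 9 somite pairs of Slc39a8 (244.9), Slc39a4 (89.4), Slc39a5 (135.7) and Slc30a1 (158.9 normalized counts). It also held the highest of Slc30a10 (96.0) and Slc30a9 (211.8). With each litter left out in turn, 0 members were called under diabetes in these yolk sacs. The part of this library alone was not tested.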

How the results depend on the processing

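No call on a single member changed its direction under any alternative, and in yolk sacs 0 members were called under diabetes in all 14 alternatives and with each litter left out. In the comparison of tissues all 24 calls at 5 to 6 somite pairs became 23 with scaling by totals, which moved the median of all genes to -0.20. They became 29 with no filter, and at 7 to 9 somite pairs the calls ranged from 24 to 30. The call of Slc30a9 at that later stage was lost under 1 of 13 alternatives. Under scaling by totals, Slc30a9 stood at -0.50 and -0.32 in place of -0.31 and -0.18 at the 2 stages. With the conceptus as a block (the paired fit) 24 members were again called at each stage, 0 and 0 for the interaction of tissue and diabetes, and 3 for that of tissue and stage; it changed no call.

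In embryos under diabetes at 5 to 6 somite pairs, 2 members were called among the libraries with title number 28 alone (Slc39a11 and Slc31a1), and 0 to 1 with a litter left out (Slc39a11 without N23M31). At 7 to 9 somite pairs the single call became 0 with no filter, litter as a random block, litter sums, without the concepti with different sex labels, in 1 fit over 8 groups, with exchanged duplicates or with title number 28 alone, and 4 with the title number as covariate. With a litter left out the count was 0 to 2 (2 without N28M03, adding Slc31a1), and Slc39a10 was not called in 10 of 13 cases (without D23M26, D24M15, D28M23, D28M31, D28M36, N24M21, N24M29, N28M06, N28M07 or N28M30), with log2 fold changes of -0.38 to -0.24. The interaction of stage and diabetes in embryos gave 2 calls by DESeq2, 0 with no filter, 3 with litter as a block, 0 with litter sums, 5 with the title number as covariate and 3 with title number 28 alone. Litter sums gave 2 in place of 6 calls with stage in embryos, and 1 in place of 3 for tissue by stage. With title number 28 alone, the change with stage was -0.61 for Slc39a4 in embryos and -0.49 for Slc39a10 in yolk sacs.

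As TMM-normalized CPM in place of normalized counts, the summed level of the members was 717.1 and 657.6 in embryos (from 1664.4 and 1519.8) and 1404.3 and 1479.5 in yolk sacs (from 3172.5 and 3361.1). This is a change of unit, since CPM scales each library to a fixed total and normalized counts refer to a library of typical depth (median total 2302819). The cause of the changes in calls was not tested. Members with under about 10 counts per library could not be tested, and alternatives with title number 28 or litter sums use fewer libraries or units. The meaning of the title number is not given in the sources used here.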

Other observations

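Markers of blood and vessels outside the comparisons of the members moved with tissue and stage. All 5 primitive erythroid markers were higher in yolk sacs than in embryos at both stages, with summed medians of 41.4 and 8642 normalized counts in embryos and yolk sacs of normal dams at 5 to 6 somite pairs. Among embryos alone, 1 of the 5 passed the filter on low counts with 5 to 6 somite pairs and 3 with 7 to 9. For markers that entered through 1 tissue or 1 stage, the filter set the direction. In embryos, 3 of 3 tested were higher at 7 to 9 somite pairs (edgeR), where the summed level ranged from 19.4 to 1577 under normal and from 36.7 to 4633 under diabetic conditions. The 3 adult blood markers tested were higher in yolk sacs at both stages, and summed levels in embryos reached 669.4. Of these, 0 passed the filter among embryos alone in either stage group, so that their direction was set by the filter. Of 5 endothelial markers, 5 passed as higher in yolk sacs with 5 to 6 somite pairs (median log2 fold change 1.18), and 4 with 7 to 9 (1.07). Among embryos alone with 5 to 6 somite pairs, 4 of the 5 passed the filter.

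Repeated libraries differed little for most members. Over members with at least 20 counts in the pair, the median absolute log2 difference between original and duplicate was 0.0704 to 0.163 in the 4 pairs. The largest difference was that of Slc39a5 in the embryo of conceptus D24M15G, at 2.56.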
